A study of Drosophila melanogaster with 18 samples.

Results

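The 9 genes described here encode core parts of the Drosophila JAK/STAT pathway, and they were taken by name from the 14237 genes of the deposited gene count table. They are the ligand genes upd1, upd2 and upd3, the receptor gene dome, the kinase gene hop, the transcription factor gene Stat92E, and the inhibitor genes Socs36E, et and Ptp61F. All 9 were found, and all 9 passed the filter of at least 10 counts over the 18 libraries. Each was followed through the 7 genotypes of an RNA-seq study of the nuclear lamina in ovaries of newly born females, in which the lamina protein emerin or its partner barrier-to-autointegration factor (BAF) was lost. Each library was made from about 100 pairs of hand dissected ovaries.

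The tested genotypes were emerin G/PI (2 libraries), emerin G/PK (2 libraries), the double mutant chk2 P6/P30, emerin G/PK (3 libraries) and baf germline knockdown (baf GLKD, 2 libraries). Their references were the wild-type strains Canton S (CS, 4 libraries) and yw (3 libraries) for the mutants, and the driver line nosgal4 (2 libraries) for the knockdown. G, PK and PI are null alleles of the emerin gene Ote in a yw background, G being a transposon insertion. Both emerin genotypes and the double mutant carry the G allele, and only the double mutant also lacks the checkpoint kinase Chk2, encoded by lok. Knockdown was driven by nosgal4 in germ cells alone, so that somatic cells of baf GLKD ovaries kept their BAF. By their labels, knockdown flies were raised at 25 °C and the flies of every other genotype at room temperature, whereas the study's methods place every cross at 25 °C. Should the labels be right, temperature and knockdown cannot be told apart. The labels number the replicates but tie no library to a culture, and p-values measure the spread between these libraries.

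JAK/STAT signaling begins when a secreted Unpaired ligand binds the receptor Domeless, which activates the kinase Hopscotch. Hopscotch phosphorylates Stat92E, which then enters the nucleus and turns on target genes, among them Socs36E, a feedback inhibitor. In the adult ovary, cap cells and terminal filament cells release Unpaired ligand, escort cells respond to it, and polar cells use the same pathway to shape the follicle cell layer. The pathway also serves hemocytes and fat body in injury and immune responses, where upd2 and upd3 are known as inducible ligands.

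Of the 9 genes 6 lie on the X chromosome (BDGP6.54 annotation). The ligand genes upd2 (X, 18240654 to 18243284, minus strand), upd3 (X, 18277233 to 18284596, plus strand) and upd1 (X, 18305354 to 18309291, minus strand) stand within 68638 bases of each other. The receptor gene dome (X, 19676061 to 19683518, minus strand) ends 169 bases before the start of et (X, 19672312 to 19675891, minus strand), which encodes the receptor-like inhibitor Eye transformer. The kinase gene hop (X, 11360930 to 11368098, minus strand) lies apart from both clusters. Stat92E is on 3R (20535323 to 20552311), Socs36E on 2L (18138675 to 18152417) and Ptp61F on 3L (1342493 to 1475257), all on the minus strand. The last 42 bases of et overlap Zw on the opposite strand, and 9 genes lie in the span of Ptp61F, 6 of them on the opposite strand. Whether counting used strand is not given in the sources used here, so shared reads at these places are uncertain.

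Expression is given as CPM, counts scaled to a common library total after TMM normalization, and tests are edgeR quasi-likelihood tests with Benjamini-Hochberg adjustment over 12762 genes. Genes with an adjusted p under 0.05 are called upregulated or downregulated. The SE printed with edgeR results was worked back from the test, as the absolute log2 fold change over the square root of the F statistic. Library totals were 18138657 to 28372959 counts. Ote was at 11.7 to 59.0 CPM in the emerin libraries and 21.6 to 23.1 CPM in the double mutants, against 64.8 to 85.3 CPM in wild type. The gene lok was at 14.3 to 16.0 CPM in the double mutants, 55.2 to 121 CPM in emerin and 194 to 247 CPM in wild type. The gene baf was at 66.4 and 72.5 CPM in baf GLKD and 86.0 and 110 CPM in nosgal4, a difference that was not called (log2 fold change -0.50, edgeR adjusted p = 0.261). In the double mutants baf was as low, at 51.6 to 75.1 CPM, against 83.2 to 195 CPM in wild type. Ote, lok and baf were all downregulated in chk2, emerin against wild type. The ovaries also differed in makeup. The summed level of 13 germ line markers was 539 to 2399 CPM in emerin and 4535 to 7137 CPM in wild type. In emerin the upper end was emerin G/PI replicate 1. Of the 13 genes 11 were downregulated, 1 upregulated and 1 not called in emerin. The highest wild-type means were those of osk, bru1 and orb (1688, 1219 and 935 CPM). The gene bgcn went the other way, at 5.83 to 21.0 CPM in emerin and 1.65 to 5.12 CPM in wild type. For 10 muscle sheath markers the sums were 30031 to 34690 CPM in emerin and 3974 to 8081 CPM in wild type, and for 14 somatic gonad markers 1318 to 1734 CPM in emerin and 547 to 1110 CPM in wild type. Of these 14 genes 8 were upregulated, 2 downregulated and 4 not called in emerin. The largest part of the higher sum came from Fas3 (mean 436 CPM in emerin and 132 CPM in wild type) and zfh1 (332 and 66.8 CPM), while tj (72.4 CPM in emerin and 152 CPM in wild type) and neur (28.4 and 43.3 CPM) were the 2 downregulated. In baf GLKD the same 3 sums were 2546 to 2806, 15513 to 17979 and 1140 to 1414 CPM, and in nosgal4 6456 to 6932, 3451 to 4626 and 428 to 667 CPM. In the double mutant they were 6230 to 6799, 4920 to 6142 and 725 to 1144 CPM, so makeup also differed between chk2, emerin and emerin. No marker was at 0 in every library of a group. In whole ovaries a smaller share of a cell type and less RNA per cell cannot be told apart, and the part of these shifts in the results below was not tested.

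Per unit of transcript length, the 9 genes stood in a similar order in the 7 genotypes. Stat92E had the highest level in each of the 7 genotypes, between a mean of 36.8 TPM in yw and 70.3 TPM in chk2, emerin. TPM, a share of transcripts corrected for length, comes from the transcript tables. Ptp61F, dome, hop and Socs36E followed, with mean levels of 9.69 to 45.5 TPM. The ligand genes and et were lowest, and no genotype mean of a ligand gene exceeded 2.73 TPM. Neighbours in this order were often closer than their spread. In wild type, for example, hop was at 14.7 ± 5.05 TPM and Socs36E at 14.6 ± 7.08 TPM (SD, n = 7). In emerin the order within this middle group changed, with dome at 38.6 ± 5.14 TPM, Ptp61F at 38.4 ± 2.55 TPM and hop at 36.7 ± 7.03 TPM (SD, n = 4). The tables behind TPM hold far fewer reads for 7 of the libraries, so CPM of the gene table is used for all tests.

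**Figure D1:**
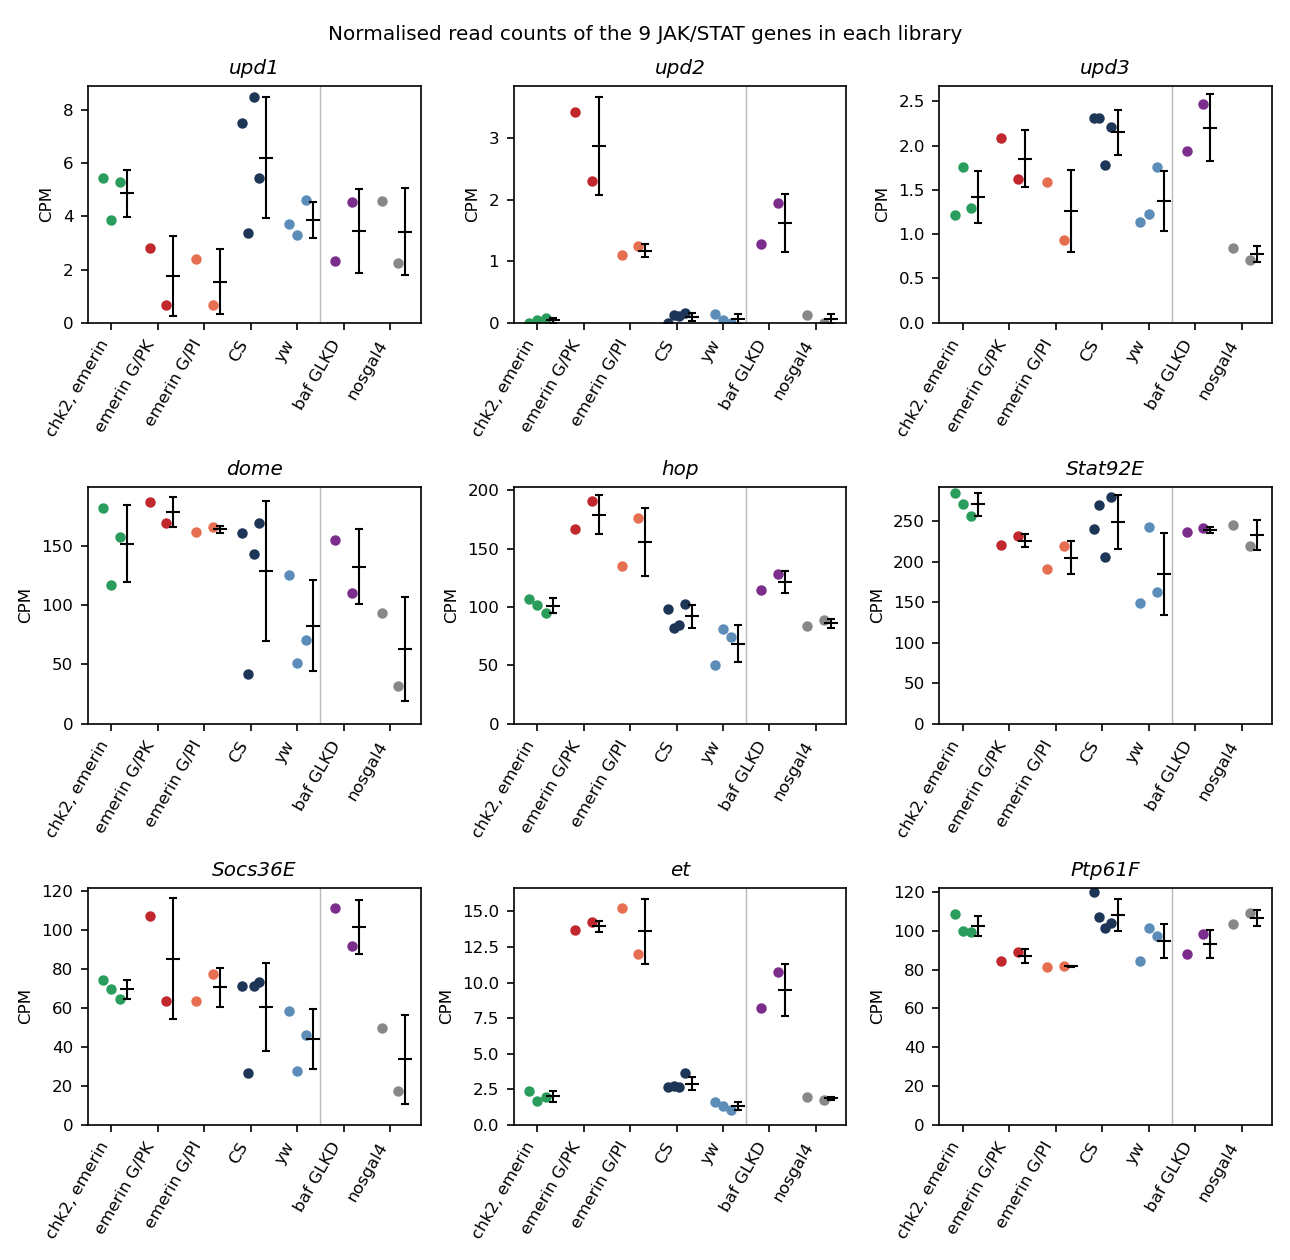
Normalised read counts (CPM, y axes from 0) of the 9 genes, with 1 point per library in each of the 7 genotypes (x axes), and the mean ± SD beside the points. The emerin and baf GLKD libraries stand above their references for upd2 and et, the emerin libraries stand above wild type for hop, and the chk2, emerin libraries overlap wild type for these 3 genes.

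The first comparison asked which pathway genes changed when emerin was lost. In emerin ovaries upd2, hop and et were upregulated, upd1 and Ptp61F were downregulated, and upd3, dome, Stat92E and Socs36E were not called. These are 5 of 9 genes called, in a comparison in which 54.9% of all genes tested were called (28.3% upregulated and 26.6% downregulated), so the share among the 9 is near the background. The median log2 fold change of the 9 genes was 0.54, and that of all genes tested was 0.12. The groups did not overlap for 4 genes (upd2, hop and et higher, upd1 lower), where 37.1% of all genes tested did not overlap (19.9% higher and 17.2% lower).

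The ligand gene upd2 was the most changed of the 9. It was at 1.10 and 1.24 CPM in emerin G/PI and 2.31 and 3.43 CPM in emerin G/PK, whereas the 7 wild-type libraries ran from 0 over a median of 0.102 to 0.153 CPM. All 4 emerin libraries stood above all 7 wild-type libraries. The counts were small, at 24 to 69 per emerin library and 0 to 4 per wild-type library. Summed over the libraries there were 164 counts in emerin and 13 in wild type, a ratio of 24.3 per scaled read (exact 95% interval 13.8 to 46.6, counting error only). The fitted log2 fold change was 4.55 (edgeR SE 0.70, adjusted p = 4.94e-05).

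The ligand gene upd1, which encodes Unpaired itself, moved the other way. It was at 2.40 and 0.674 CPM in emerin G/PI and 2.83 and 0.681 CPM in emerin G/PK, against a lowest value of 3.28, a median of 4.61 and a highest value of 8.49 CPM in wild type. Both emerin genotypes thus held a higher and a lower library, and even the higher ones lay below wild type. The log2 fold change was -1.65 (edgeR SE 0.45, adjusted p = 0.00515). The third ligand gene, upd3, overlapped wild type at 0.934 to 2.09 CPM in emerin and 1.14 to 2.31 CPM in wild type, with a log2 fold change of -0.23 (edgeR SE 0.29, adjusted p = 0.521). In mean TPM, upd2 ranked above upd1 in emerin (1.15 ± 0.816 and 0.674 ± 0.502 TPM, SD, n = 4), and below it in wild type (0.0192 and 2.03 TPM). The order in emerin lay within this spread, and in emerin G/PI replicate 1 upd2 was the lower (0.288 and 0.675 TPM).

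The kinase gene hop was at 135 and 176 CPM in emerin G/PI and 167 and 191 CPM in emerin G/PK, against 50.7 to 102 CPM with a median of 82.3 CPM in wild type. Its lowest emerin library lay above its highest wild-type library. The log2 fold change was 1.03 (edgeR SE 0.15, adjusted p = 2.44e-05), and it was 0.86 against CS alone and 1.29 against yw alone. The receptor gene dome was at 162 to 187 CPM in emerin and 42.2 to 169 CPM in wild type (log2 fold change 0.65, edgeR SE 0.35, adjusted p = 0.128). Its emerin libraries lay close together, and its wild-type libraries were spread widely. The transcription factor gene Stat92E overlapped fully, at 191 to 231 CPM in emerin and 149 to 280 CPM in wild type, with a log2 fold change of -0.04 (edgeR SE 0.15, adjusted p = 0.846).

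Among the inhibitors, et was upregulated in emerin. Eye transformer resembles Domeless and is known to dampen the pathway. It was at 15.2 and 12.0 CPM in emerin G/PI and 13.7 and 14.3 CPM in emerin G/PK, against 1.02 to 3.63 CPM with a median of 2.62 CPM in wild type. No wild-type library came near the emerin libraries, and the log2 fold change was 2.63 (edgeR SE 0.28, adjusted p = 1.23e-06). Of its neighbours dome was not called, and Zw, on the other side, was upregulated with a log2 fold change of 0.52 (edgeR adjusted p = 0.000913). Socs36E was at 63.3 to 107 CPM in emerin and 26.3 to 73.1 CPM in wild type and was not called (log2 fold change 0.54, edgeR SE 0.30, adjusted p = 0.139). Ptp61F, which encodes a phosphatase that acts on Hopscotch and Stat92E, was at 81.5 to 89.3 CPM in emerin and 84.7 to 120 CPM in wild type. Its log2 fold change of -0.28 (edgeR SE 0.09, adjusted p = 0.0145) was small, the groups overlapped through yw replicate 1, and against yw alone it was -0.17 (edgeR adjusted p = 0.160). In TPM the direction turned, with 38.4 ± 2.55 TPM in emerin (SD, n = 4) and 37.2 ± 8.15 TPM in wild type (SD, n = 7).

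**Figure D2:**
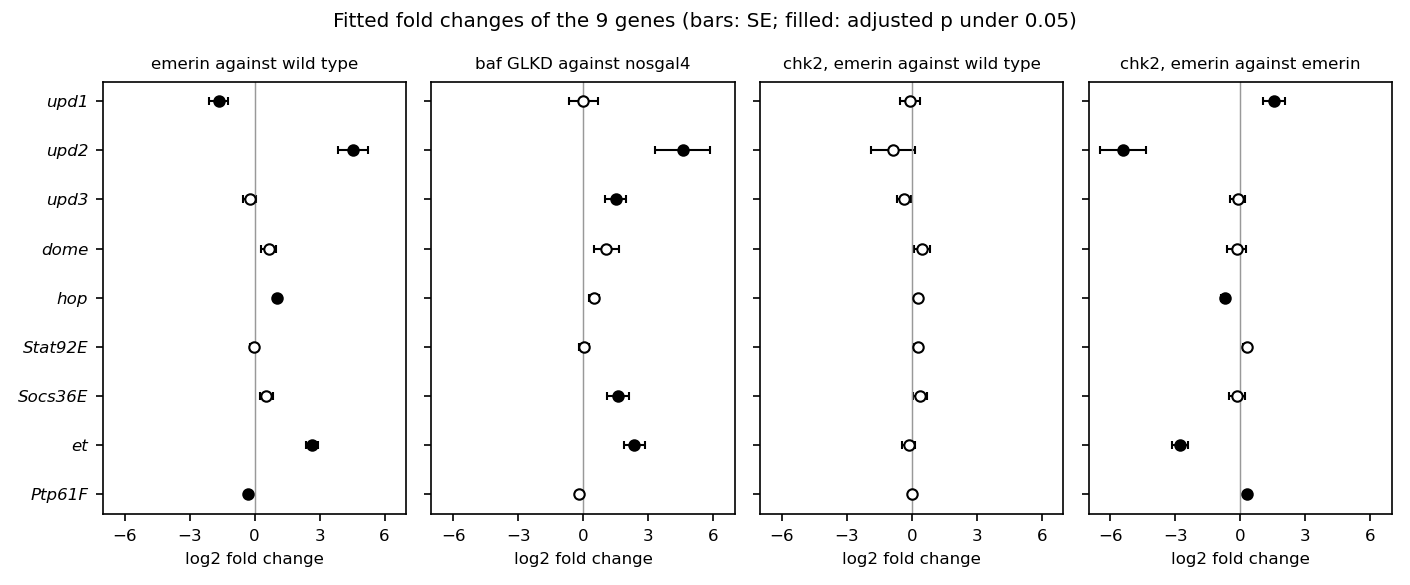
Fitted log2 fold changes (x axes) of the 9 genes (y axis) with their standard errors in 4 comparisons, where filled points have an edgeR adjusted p under 0.05. In emerin against wild type upd2, et and hop are at 4.55, 2.63 and 1.03, in baf GLKD against nosgal4 upd2 and et are at 4.59 and 2.36, and no point is filled in chk2, emerin against wild type.

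The second comparison asked the same of BAF loss limited to germ cells. In baf GLKD ovaries upd2, upd3, Socs36E and et were upregulated and none of the 9 genes was downregulated. Of all genes tested 21.5% were called, 13.3% upregulated and 8.28% downregulated, beside 4 of the 9 pathway genes upregulated. The median log2 fold change was 1.07 over the 9 genes and 0.11 over all genes tested. Of the 9 genes 6 were higher in both knockdown libraries than in both driver libraries and 1 was lower, and 64.8% of all genes tested (34.1% higher and 30.7% lower) did not overlap in this comparison of 2 with 2 libraries.

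For upd2, baf GLKD libraries were at 1.28 and 1.95 CPM and nosgal4 libraries at 0.120 and 0 CPM. These are 74 and 3 counts, a ratio of 25.0 (exact 95% interval 8.23 to 124, counting error only), and the fitted log2 fold change was 4.59 (edgeR SE 1.26, adjusted p = 0.0176). The gene upd3, which was not called in emerin, was at 1.94 and 2.47 CPM in baf GLKD and 0.842 and 0.709 CPM in nosgal4 (2.83-fold higher, edgeR SE 0.47 on the log2 scale, adjusted p = 0.0313). The nosgal4 values were the lowest of all 18 libraries for upd3, below the 1.14 to 2.31 CPM of the CS and yw libraries. The baf GLKD values lay within or just above that range. In TPM the direction turned in replicate 1, at 0.283 in baf GLKD and 0.531 in nosgal4 for upd3, and 0.162 and 0.203 for upd2. The transcript tables of these libraries hold far fewer reads, and replicate 2 did not turn (1.34 and 0.306 TPM, and 1.20 and 0 TPM). With counts from the transcript tables neither upd3 nor upd2 was called (log2 fold changes 0.99 and 4.26, edgeR adjusted p = 0.379 and 0.0679). For upd1 the groups overlapped, at 2.32 and 4.56 CPM in baf GLKD and 4.57 and 2.26 CPM in nosgal4 (log2 fold change 0.01, SE 0.66). The upd3 call was lost when any 1 of the 4 libraries was left out (edgeR adjusted p = 0.0889 to 0.171). The upd2 call was lost without nosgal4 replicate 2 (log2 fold change 3.68, edgeR adjusted p = 0.131) or baf GLKD replicate 2 (4.24, edgeR adjusted p = 0.0559). Without nosgal4 replicate 1 the nosgal4 count was 0, and the fitted 8.19 (edgeR adjusted p = 0.0342) is then no measure of size.

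The inhibitor et was at 8.21 and 10.8 CPM in baf GLKD and 1.93 and 1.77 CPM in nosgal4, which is 2.36 as a log2 fold change (edgeR SE 0.48, adjusted p = 0.00336). Of the 4 genes called, et was the only one whose call held when each of the 4 libraries was left out in turn (edgeR adjusted p = 0.0121 to 0.0410). Socs36E was at 111 and 91.7 CPM in baf GLKD and 49.7 and 17.2 CPM in nosgal4, with a log2 fold change of 1.60 (edgeR SE 0.50, adjusted p = 0.0325). The low value is nosgal4 replicate 2, the lowest of all 18 libraries for this gene, and without it the log2 fold change was 1.03 (edgeR adjusted p = 0.257), whereas without nosgal4 replicate 1 it was 2.56 (edgeR adjusted p = 0.0201). When either baf GLKD library was left out the Socs36E call was lost too (edgeR adjusted p = 0.149 and 0.0620). The receptor gene dome was at 155 and 110 CPM in baf GLKD and 93.6 and 32.0 CPM in nosgal4, and hop was at 114 and 128 CPM in baf GLKD and 83.3 and 88.7 CPM in nosgal4. Neither was called (log2 fold changes 1.07 and 0.50, edgeR adjusted p = 0.198 and 0.153), but hop was called without yw replicate 1 (edgeR adjusted p = 0.0478). When the fit held only the 11 libraries whose transcript and gene tables had like totals, with 1 baf GLKD library and 1 nosgal4 library assumed to vary like the other groups, dome was called (log2 fold change 1.79, edgeR adjusted p = 0.0485) and upd3 was not (edgeR adjusted p = 0.115). Stat92E was at 236 and 241 CPM in baf GLKD and 246 and 219 CPM in nosgal4. Ptp61F was at 88.03 and 98.34 CPM in baf GLKD and 104 and 109 CPM in nosgal4. Neither of these genes was called. The fits above took no account of the replicate number. With the replicate number added as a block, upd2, Socs36E and et were called (edgeR adjusted p = 0.0257, 0.00943 and 0.00397). In that fit upd3 and dome were not called (edgeR adjusted p = 0.0508 and 0.0564).

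Whether the knockdown and the mutation changed a gene differently was tested as the difference of the 2 effects, which share no libraries. None of the 9 genes was called in this edgeR test, in which 0.0470% of all genes were (0.0313% with a higher and 0.0157% with a lower effect in baf GLKD), and 1 had an unadjusted p under 0.05. That gene was upd3 (difference 1.72 on the log2 scale, SE 0.55, unadjusted p = 0.00606, edgeR adjusted p = 0.385). For upd1 the difference was 1.66 (edgeR SE 0.80, adjusted p = 0.644), for hop it was -0.53 (edgeR SE 0.28, adjusted p = 0.690) and for et -0.27 (edgeR SE 0.54, adjusted p = 0.940).

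The next comparisons asked what Chk2 loss did to these changes. None of the 9 genes was called in chk2, emerin against wild type, where 7.58% of all genes were called (2.82% upregulated and 4.76% downregulated), and 0 had an unadjusted p under 0.05 in edgeR. The groups overlapped for all 9, beside 13.5% of all genes that did not overlap (6.43% higher and 7.11% lower). DESeq2, run as an alternative, called none of them either. Against emerin, upd1 and Ptp61F were upregulated and upd2, hop and et were downregulated in the double mutant, 5 of 9 genes beside 49.1% of all genes tested (22.7% upregulated and 26.4% downregulated), a share near the background. This comparison shares the emerin libraries with that of emerin against wild type. The groups did not overlap for 6 of the 9 genes, 3 higher and 3 lower, and for 57.6% of all genes tested (27.2% higher and 30.4% lower). The median of all genes tested was -0.25 on the log2 scale in this comparison, and -0.16 for the 9 genes.

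In the double mutant upd2 was at 0, 0.0489 and 0.0761 CPM, 3 counts in all against 164 in emerin. The ratio was 0.0213 (exact 95% interval 0.0043 to 0.0634, counting error only), and the fitted log2 fold change was -5.42 (edgeR SE 1.06, adjusted p = 0.000509), or -6.16 without chk2, emerin replicate 3 (edgeR adjusted p = 0.00241). The gene et was at 2.40, 1.66 and 1.94 CPM in chk2, emerin, and the emerin libraries began at 12.0 CPM (log2 fold change -2.78, edgeR SE 0.38, adjusted p = 1.96e-05). The kinase gene hop was at 107, 101 and 95.0 CPM in chk2, emerin and at 135 CPM or more in emerin (log2 fold change -0.72, edgeR SE 0.19, adjusted p = 0.00419). For these 3 genes no double mutant library reached an emerin library. The ligand gene upd1 was at 5.45, 3.86 and 5.29 CPM in the double mutant, above all 4 emerin libraries (log2 fold change 1.56, edgeR SE 0.51, adjusted p = 0.0183). Without chk2, emerin replicate 1 its adjusted p was 0.0526. These values pool both emerin genotypes, and the double mutant carries the alleles of emerin G/PK. Against emerin G/PK alone upd1 was not called (log2 fold change 1.47, edgeR adjusted p = 0.0839). Against emerin G/PI alone it was not called either (1.65, edgeR adjusted p = 0.0583). Ptp61F was at 109, 99.9 and 99.6 CPM in the double mutant (log2 fold change 0.29, edgeR SE 0.11, adjusted p = 0.0378). This call was lost when any 1 of the double mutant libraries was left out (edgeR adjusted p = 0.0629 to 0.127). It was also lost against emerin G/PK alone (log2 fold change 0.24, edgeR adjusted p = 0.156) and against emerin G/PI alone (0.33, edgeR adjusted p = 0.059).

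Stat92E, dome, upd3 and Socs36E were not called in the double mutant against emerin. Stat92E was at 285, 271 and 257 CPM in chk2, emerin, above all 4 emerin libraries and in or just above the upper part of the wild-type range (log2 fold change 0.33 against emerin, edgeR adjusted p = 0.149). It was called when only the groups compared entered the fit (log2 fold change 0.38, edgeR adjusted p = 0.0130). The level of dome was 117 to 181 CPM, that of Socs36E 64.4 to 74.3 CPM and that of upd3 1.22 to 1.76 CPM. Each of these ranges overlapped both emerin and wild type.

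The transcripts that make up the Stat92E total differed between groups. Stat92E encodes the STAT protein of the fly, and the annotation gives 2 forms of its N terminus. Of its 11 transcripts 6 carry an optional exon of 413 bases (3R, 20541680 to 20542092) that holds the upstream start codon, and the other 5 skip it and begin at a start codon in the next exon, so that their protein lacks the first 126 residues. In Drosophila an N-terminally short Stat92E has been described as an inhibitor of the pathway. The exon was singled out after its values were seen, and its share is given as a description with no test.

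Transcripts with the optional exon made up 29.1% and 20.5% of Stat92E TPM in emerin G/PI, 27.7% and 26.4% in emerin G/PK, and 38.3% to 63.4% in the 7 wild-type libraries. Every emerin library lay below every wild-type library, and yw replicate 3 was the lowest of the wild-type libraries. In the double mutant the share was 66.1%, 60.1% and 61.3%, at or above the upper part of the wild-type range. In baf GLKD it was 33.1% and 42.1%, and in nosgal4 68.2% and 61.1%. Transcripts without the exon were at 46.8 ± 7.45 TPM in emerin (SD, n = 4) and 22.9 ± 6.39 TPM in wild type (SD, n = 7). The same transcripts were at 43.9 and 42.0 TPM in baf GLKD and 19.5 and 20.2 TPM in nosgal4. Transcripts with the exon were at 16.3 ± 2.85 TPM in emerin and 28.3 ± 11.8 TPM in wild type, where yw replicates 1 and 3 were as low as emerin. The transcripts also differ in their first exon, and the 2 start sites did not separate the groups: the upstream site took 25.6% to 55.6% in emerin and 38.7% to 68.5% in wild type.

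**Figure D3:**
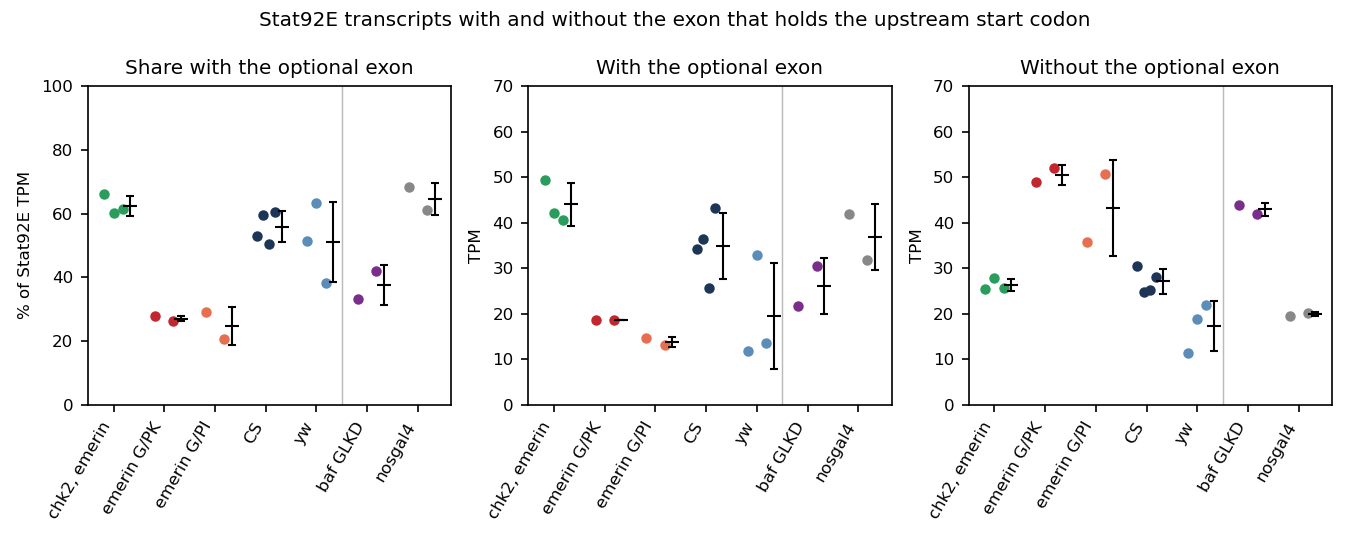
Share of Stat92E TPM in transcripts with the optional exon (left, percent of the gene's TPM), and the TPM of transcripts with it (middle) and without it (right), with 1 point per library and the mean ± SD beside the points for the 7 genotypes on the x axes. The 4 emerin libraries sit between 20.5% and 29.1%, below the 38.3% to 63.4% of the CS and yw libraries, and transcripts without the exon are higher in emerin and baf GLKD than in their references.

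These shares rest on reads that kallisto divided among transcripts, and the error of that division was not used here. In the 11 libraries with full transcript tables the pattern was the same. Of these, the emerin libraries were at 20.5% to 27.7% and the wild-type libraries at 38.3% to 60.6%. The baf GLKD library was at 42.1% and the nosgal4 library at 61.1%. Germ line and somatic marker levels moved with the share in the same groups, and their part in it was not tested.

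The receptor gene dome and the feedback inhibitor gene Socs36E varied together from library to library. The 5 lowest libraries were the same for both genes, namely nosgal4 replicates 1 and 2, CS replicate 2 and yw replicates 2 and 3. They were also the 5 lowest for the summed somatic gonad markers, with or without zfh1, and for the summed hemocyte markers, with 4 of the 5 shared when vkg was left out. Of the 5 lowest for muscle sheath markers 4 were the same, and for germ line markers 0. The level of dome was 1.54 to 2.31 times that of Socs36E in wild type and 1.75 to 2.68 times in emerin, in CPM, which does not correct for length. In baf GLKD it was 1.39 and 1.20 times, below the 1.88 and 1.86 times of nosgal4 and below every other library.

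**Figure D4:**
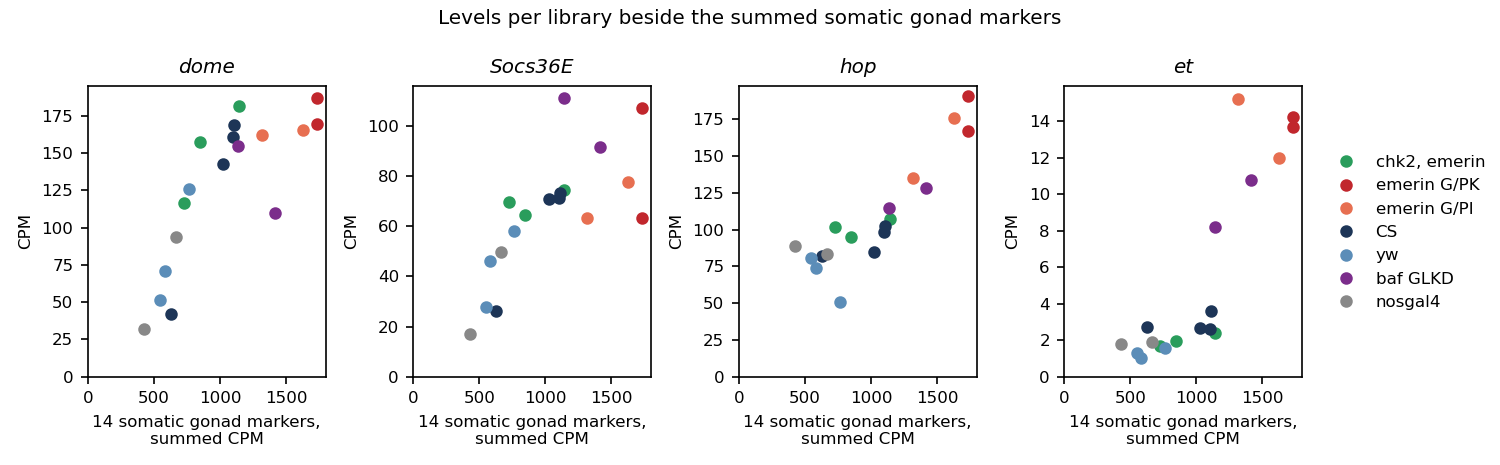
CPM of dome, Socs36E, hop and et (y axes from 0) against the summed CPM of 14 somatic gonad markers (x axes), with 1 point per library coloured by genotype. The 5 libraries lowest for these markers, and for the hemocyte markers, which are not drawn, are also the 5 lowest for dome and Socs36E. In CS, yw, nosgal4 and chk2, emerin et is at 1.02 to 3.63 CPM, with marker sums of 428 to 1144 CPM. The emerin and baf GLKD libraries, where et is higher, have sums of 1140 to 1734 CPM, so the ranges hardly meet.

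The reference strains and the emerin genotypes were compared as a background. In CS against yw, et was upregulated (2.62 to 3.63 CPM in CS and 1.02 to 1.57 CPM in yw, log2 fold change 1.15, edgeR SE 0.23, adjusted p = 0.00434), and edgeR called none of the other 8 genes beside 12.4% of all genes (6.37% upregulated and 6.06% downregulated). For et the adjusted p was over the threshold when CS and yw were fitted alone (edgeR adjusted p = 0.0639) and with only the 11 libraries of like table totals (0.0769). DESeq2 called hop and Stat92E too, at log2 fold changes of 0.42 and 0.43 (DESeq2 adjusted p = 0.0490 and 0.0466), as did edgeR without yw replicate 2 (edgeR adjusted p = 0.0393 and 0.00633). The groups did not overlap for 3 of the 9 genes, all higher in CS, and for 20.8% of all genes (9.69% higher and 11.1% lower). The log2 fold change of et in emerin was 2.25 against CS alone and 3.40 against yw alone. The level of hop was 82.3 to 102 CPM in CS and 50.7 to 80.7 CPM in yw (log2 fold change 0.42, edgeR adjusted p = 0.0886). In emerin G/PK against emerin G/PI none of the 9 genes was called by edgeR, and 0 had an unadjusted p under 0.05, where 0.697% of all genes tested were called (0.0862% upregulated and 0.611% downregulated). The groups did not overlap for 5 of the 9 genes, all higher in emerin G/PK, and for 41.2% of all genes (19.2% higher and 22.0% lower). In this comparison DESeq2 called none of the 9 either. The gene upd2 had the largest fitted change of the 9, with 2.31 and 3.43 CPM in emerin G/PK and 1.10 and 1.24 CPM in emerin G/PI (log2 fold change 1.29, edgeR SE 0.94, adjusted p = 0.722).

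Lists of further regulators and of target genes place the 9 genes in their pathway. Of 17 tested regulators of the pathway, 3 were upregulated and 6 downregulated in emerin, a count near the background of 54.9% of all genes called (28.3% upregulated and 26.6% downregulated). Their median log2 fold change was -0.25, beside 0.12 for all genes tested. The leucine-rich repeat gene wdp, whose product promotes turnover of Domeless, was at 114 to 230 CPM in emerin and 32.9 to 62.0 CPM in wild type (log2 fold change 2.01, edgeR SE 0.19, adjusted p = 4.69e-07). Cdk4 and CycD, which encode the cyclin D kinase complex, were lower, with log2 fold changes of -1.11 and -0.80 (edgeR adjusted p = 1.26e-06 and 2.79e-06). Levels of Cdk4 were 49.0 to 64.0 CPM in emerin and 96.0 to 139 CPM in wild type. In baf GLKD 4 of the 17 were called, near the background of 21.5% of all genes, and these calls fell to between 0 and 2 in all when any 1 library of that comparison was left out. They were wdp and Stam, upregulated, and Cdk4 and CycD, downregulated, with log2 fold changes of 0.99 for wdp, -0.82 for Cdk4 and -0.57 for CycD (edgeR adjusted p = 0.0363, 0.00549 and 0.00991). None of the 17 was called in chk2, emerin against wild type by edgeR. Against emerin 7 were upregulated and 2 downregulated, near the 49.1% of all genes called there (22.7% upregulated and 26.4% downregulated), with CycD (0.92), Cdk4 (0.98) and E(bx) (1.56), which encodes a subunit of the nucleosome remodeler NURF, as those of smallest edgeR adjusted p (3.96e-06, 2.05e-05 and 3.42e-05).

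Among known target genes of the pathway, those called were higher in emerin and in baf GLKD. Of 14 tested targets 9 were upregulated and 0 downregulated in emerin, and 8 were upregulated and 0 downregulated in baf GLKD, beside 28.3% and 13.3% of all genes upregulated. Their median log2 fold change was 1.86 in emerin and 2.32 in baf GLKD, beside 0.12 and 0.11 for all genes tested. The tested targets include the Tot genes TotA, TotB, TotC, TotF, TotM and TotX, which may not vary separately. TotB, TotF, TotM, TotX, Listericin and slbo had means under 1 CPM in both emerin and wild type. In the baf GLKD libraries TotC was at 0 and 8.18 CPM. Without nosgal4 replicate 2 the targets called in baf GLKD were 2, without nosgal4 replicate 1 or baf GLKD replicate 1 they were 3, and without baf GLKD replicate 2 they were 6, with none downregulated. In emerin the number was 6 to 9 when any 1 library was left out. With emerin G/PK as the only emerin genotype 7 targets were upregulated and 1 downregulated. That gene, named after its values were seen, was slbo, which encodes a C/EBP transcription factor of border cells. It had 1 count over both emerin G/PK libraries, 59 over both emerin G/PI libraries and 57 over the 7 wild-type libraries, and it was also the 1 target called, downregulated, in emerin G/PK against emerin G/PI (edgeR adjusted p = 0.0496). The gene dpp, which encodes the BMP ligand that maintains germline stem cells, was at 86.2 to 130 CPM in emerin and 7.49 to 29.5 CPM in wild type (log2 fold change 2.70, edgeR SE 0.32, adjusted p = 4.43e-06). In baf GLKD dpp was at 51.1 and 67.6 CPM, against 16.5 and 5.85 CPM in nosgal4 (log2 fold change 2.40, edgeR adjusted p = 0.00736). Mmp1, a matrix metalloproteinase gene, was at 94.3 to 190 CPM in emerin and 37.7 to 64.6 CPM in wild type, and at 129 and 149 CPM in baf GLKD and 39.1 and 19.9 CPM in nosgal4 (log2 fold changes 1.56 and 2.23, edgeR adjusted p = 2.4e-05 and 0.00105). The stress peptide gene TotA was at 8.68 to 22.4 CPM in emerin and 0.964 to 2.85 CPM in wild type (log2 fold change 2.88, edgeR adjusted p = 1.21e-05). Immune and stress genes thus stand among the targets called beside dpp.

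In the double mutant 0 targets were upregulated and 1 downregulated against wild type by edgeR, and 0 upregulated and 8 downregulated against emerin. Of all genes tested 2.82% were upregulated and 4.76% downregulated against wild type, and 22.7% upregulated and 26.4% downregulated against emerin. Of the 8 targets, Mmp1, vir-1 and TotA had the smallest adjusted p, with log2 fold changes of -1.84, -2.46 and -2.93 (edgeR adjusted p = 8.5e-05, 0.000125 and 0.00023). The antiviral marker gene vir-1 was at 39.0 to 50.4 CPM in chk2, emerin and 203 to 354 CPM in emerin. The gene called against wild type was Listericin, an antibacterial peptide gene, with 0 counts in the 3 double mutant libraries and 23 in the 7 wild-type libraries, which is at least 3.42-fold lower (floor of 3 counts over the group, edgeR adjusted p = 0.0388). That call was lost when any 1 of the double mutant libraries, CS replicate 2, CS replicate 3 or emerin G/PK replicate 2 was left out. The same gene had 102 counts in baf GLKD and 0 in nosgal4, at least 34.5-fold higher (edgeR adjusted p = 0.00303). Its baf GLKD libraries were far apart, at 0.665 and 3.41 CPM. TotC, TotM and Listericin were at 0 in nosgal4, and their bounds lie above the list median of 2.32. Setting them to these bounds could therefore not move the median. TotF was also at 0 in nosgal4 and had too few counts for a bound. Hemocytes and fat body are known to express Tot genes and vir-1. The sum of 9 hemocyte markers was 2428 to 3806 CPM in emerin and 496 to 2088 CPM in wild type, but vkg made up 82.9% of the wild-type sum, and the other 8 summed to 1145 to 1924 CPM in emerin and 131 to 364 CPM in wild type. In baf GLKD these 8 summed to 736 and 968 CPM, in nosgal4 to 128 and 154 CPM, and in the double mutant to 175 to 213 CPM. Of 10 fat body markers 8 were upregulated, 1 downregulated and 1 not called in emerin. FASN1 made up 66.8% of the wild-type sum, and its mean was lower in emerin (271 CPM, against 463 CPM in wild type). Its emerin range of 199 to 340 CPM lay within its wild-type range of 136 to 769 CPM. The other 9 summed to 783 to 2250 CPM in emerin and 96.3 to 447 CPM in wild type. Of them Mtp was lower, at 21.5 to 34.5 CPM in emerin and 36.8 to 51.3 CPM in wild type. The sums of the 9 markers without FASN1 were 781 and 1094 CPM in baf GLKD and 146 and 150 CPM in nosgal4. In the double mutant they were 174 to 197 CPM. The target zfh1 is itself among the 14 somatic gonad markers. Their part in the target levels was not tested.

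**Figure D5:**
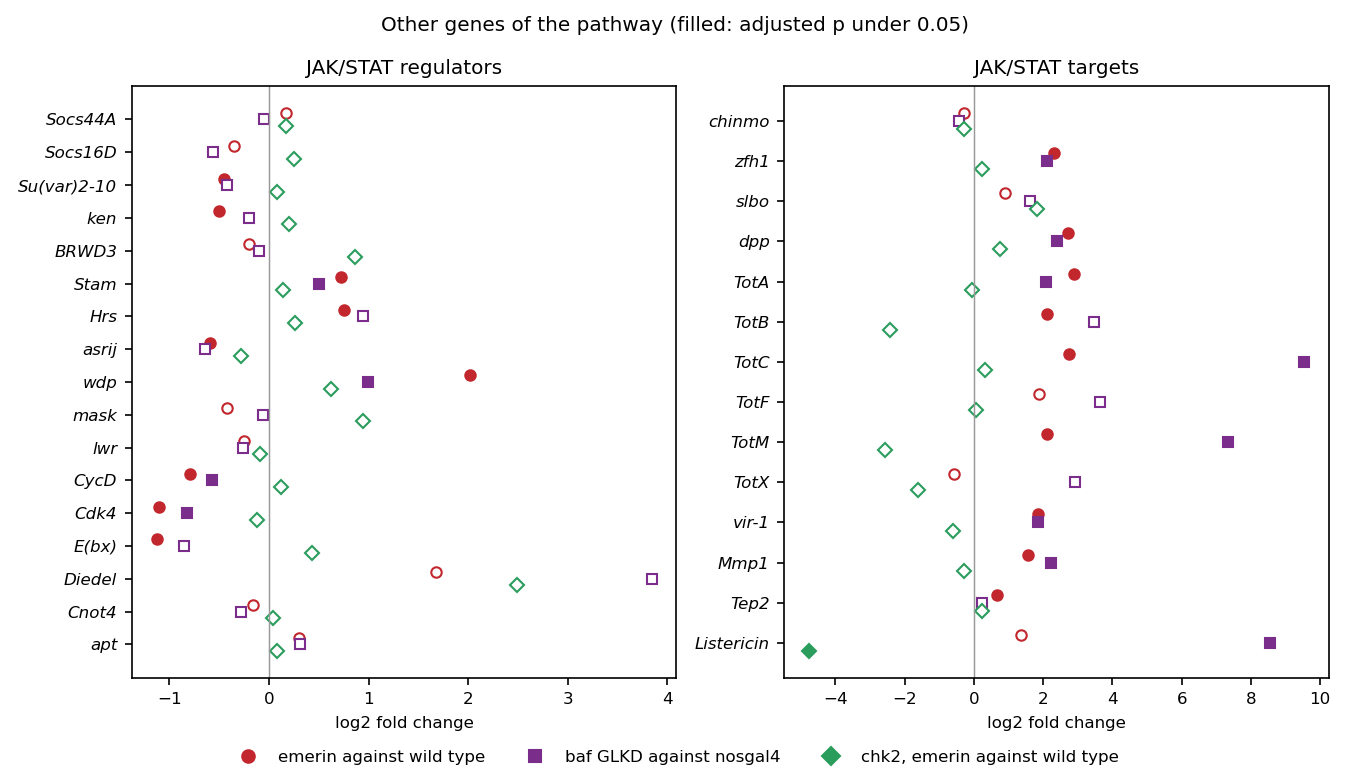
Fitted log2 fold changes (x axes) of 17 regulators (left) and 14 targets (right) of the pathway in 3 comparisons, where filled symbols have an edgeR adjusted p under 0.05. Among the targets 9 are filled for emerin and 8 for baf GLKD, all to the right of 0, while the regulators lie on both sides. The baf GLKD values of TotC, TotF, TotM and Listericin are fitted against a reference without counts and are no measure of size.

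Genes with the pattern most like each member over the 7 genotypes were sought among 9167 genes, by the root mean square difference of centred log2 CPM. For et these were Smyd4-3 (0.0589), Spn77Ba (0.100) and CG4213 (0.101). For hop they were Mcr (0.0751), l(3)neo38 (0.0795) and sima (0.0806), and for dome kek5 (0.0577), Zdhhc8 (0.0806) and px (0.109). Stat92E was most like CG6923 (0.0562), Sec24AB (0.0693) and Ube4B (0.0720), and Ptp61F most like CG31638 (0.0412), Pli (0.0437) and CG12016 (0.0484). The genes nearest to upd1 were RhoGEF64C (0.105), hwt (0.147) and alpha-Man-IIb (0.156), those nearest to upd3 were CG7985 (0.155), CR31032 (0.162) and CG31274 (0.178), and those nearest to Socs36E were Pura (0.169), CG7702 (0.193) and ena (0.193). No member was nearest to another, since members were left out of the search, and upd2, with a mean under 1 CPM, was not compared.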

How the data were processed

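RNA-seq reads were trimmed (Trim Galore 0.6.6, per the submitters' processing notes), assigned to BDGP6.32 transcripts with kallisto 0.46.1 and summed to genes with tximeta by the authors. In the deposited gene table these estimated counts are whole numbers without scaling for library size. The deposited tables of transcripts give TPM, estimated counts and, as a unit other than expression, the effective length in bases. Their totals were 7.42 to 18.9 times smaller than those of the gene table in 7 of 18 libraries. Tests therefore used the gene table, and TPM served for levels between genes and for transcripts.

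Of 14237 genes, 1475 did not reach 10 counts summed over the libraries (394 at 0), and 12762 were tested. Counts were TMM scaled and fitted with edgeR 4.0.16 (R 4.3.3, limma 3.58.1), with emerin G/PI and G/PK as 1 group and CS and yw as 1 group. Comparisons within these pairs used a fit of 7 genotypes. No library was left out, and libraries of a genotype differed by more than sampling noise (chi-square per degree of freedom 16.4 to 204.1). The procedure was run on simulated counts drawn from the kind of model that edgeR fits, with few genes changed and none of low count. That run does not cover genes with few counts, such as upd2, or comparisons in which many genes change. Group values are CPM, with intervals covering counting error only. The precision of a level follows its counts, which were 13 to 195 per library for upd1 and 2849 to 7336 for Stat92E.

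Named were the 9 members, the 3 genes of smallest adjusted p called in each of both pathway lists in the first 4 comparisons, Ote, baf and lok, and the 3 genes most like each member. Members and lists were chosen with earlier results of these data known. Targets with low counts were named after seeing the data. Alternatives were DESeq2 1.42.0, RLE, library size only, other filters, samples, references, thresholds and count sources, a replicate block, a library set block and each library left out. The second library set only, and marker sums without vkg, FASN1 or zfh1, were chosen after seeing the data. The genes smt3 and nos and all sequences were not analysed here. Figures and table work used pandas 2.3.3, numpy 2.4.6, scipy 1.17.1 and matplotlib 3.10.9.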

Additional observations from a re-analysis of the deposited data

Results flagged for a closer look

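Each of the 9 genes was searched for a library far from the others in CS, in emerin and in CS and yw together as wild type, 27 searches that are not separate since wild type holds the CS libraries. In 2 of them a library stood out, both in CS, where chance flags about 1 group in 20. Socs36E was at 26.3 CPM in CS replicate 2, while the other CS libraries lay between 70.9 and 73.1 CPM. The same library was the lowest CS library for dome, at 42.2 CPM. The gene et was at 3.63 CPM in CS replicate 4, while the other CS libraries lay between 2.62 and 2.71 CPM. That value is still below the lowest emerin library, at 12.0 CPM.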

How the results depend on the processing

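Over 35 settings, 63 results of single genes were compared 2043 times, of which 1988 kept the call or its absence, 42 lost the call, 13 gained it and 0 called results turned round. Of the 3 genes upregulated in emerin all held throughout. With the replicate number as a block 5 were called, dome (log2 fold change 1.04, adjusted p = 0.00851) and Socs36E (0.80, adjusted p = 0.0224) being added. The labels do not say what a replicate number shares, and for emerin G/PK the numbers of titles and columns differ, so that its pairs may be mismatched. Deviations of same-numbered libraries correlated at 0.539 for baf GLKD and nosgal4. With 2 libraries in each of these groups both pairs gave the same number, so this is 1 value. The correlations were 0.421, 0.33 and 0.128 for chk2, emerin and CS, and 0.027 to 0.277 for chk2, emerin and yw. They were 0.061 to 0.44 for CS and yw, and 0.04 to 0.253 for emerin G/PI and CS or yw. For emerin G/PK and CS or yw they were -0.059 to 0.14. For chk2, emerin and both emerin genotypes they were -0.11 to 0.059. Not every pair of the groups compared passed 0.1, so the block was not made part of the design. This holds for baf GLKD against nosgal4 too, although the value of 0.539 there was above 0.1. The 2 genes downregulated in emerin were 1 (upd1, without Ptp61F) with library size only, counts from the transcript tables, yw only, emerin G/PK only, an adjusted p under 0.01 or a 2-fold minimum. The 4 genes upregulated in baf GLKD were 2 with counts from the transcript tables, 1 with only the groups compared or an adjusted p under 0.01, and 1 to 5 when 1 library was left out. With the second library set only they were 4, with dome in place of upd3. In chk2, emerin against wild type 2 genes (hop and Stat92E) were upregulated with yw only. The 2 genes upregulated in chk2, emerin against emerin were 1 with RLE, library size only, the replicate block or a 2-fold minimum, 0 with emerin G/PI only, emerin G/PK only or an adjusted p under 0.01, and 0 to 2 when 1 library was left out. There Stat92E was called with only the groups compared, and hop did not reach a 2-fold minimum. In CS against yw 3 genes were upregulated with DESeq2 or library size only, 0 with only the groups compared or with the second library set only, and 1 to 3 when 1 library was left out. Leaving out libraries or groups leaves fewer samples, and for the other settings the cause was not tested. The block changed, beside these, the upd3 call in baf GLKD (adjusted p = 0.0508) and that of Ptp61F in chk2, emerin against emerin (0.0511).

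Library size only moved the median over all genes tested, on the log2 scale, to 0.29 in baf GLKD against nosgal4, -0.39 in chk2, emerin against emerin and 0.16 in CS against yw, where TMM gave 0.11, -0.25 and 0.01. Genes upregulated and downregulated were then 1819 and 444 in baf GLKD (RLE 1748 and 750, TMM 1692 and 1057), 253 and 923 in chk2, emerin against wild type (TMM 360 and 607) and 1168 and 391 in CS against yw (TMM 813 and 773). Over all settings, 5 to 9 targets were upregulated in emerin (0 or 1 downregulated) and 2 to 9 in baf GLKD (0 downregulated). Regulators upregulated in emerin were 1 to 4 and those downregulated 2 to 9. Of 18 ratios of group means in TPM, 4 differed from those in CPM by over 1 SD between libraries (upd2 in both comparisons, Stat92E and et in baf GLKD). The sign differed for 3 in emerin against wild type, with log2 ratios in TPM and CPM of 0.34 and -0.23 for upd3, 0.30 and -0.04 for Stat92E, and 0.04 and -0.28 for Ptp61F, which was called. Depth limits upd2, with at most 4 counts in any wild-type library.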
